A study of Mus musculus with 12 samples.

Results

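The 59 genes described here encode proteins that copy DNA in S phase and separate chromosomes in mitosis. They were taken as a given list of names and matched to the gene symbols of the count table, in which all 59 were found once each, among 55487 genes. The list has 30 mitosis genes, from Mki67 to Mybl2, and 29 DNA replication genes, from Mcm2 to E2f1, and the sets are reported apart. RNA came from breast tumours of 12 C57BL/6J mice, each carrying the MMTV-PyMT transgene, which places the middle T antigen of polyoma virus under a viral promoter active in the mammary epithelium. Bad was wild-type in 6 of the mice (Bad_WT) and the 3SA form in the other 6 (Bad3SA), in which the regulatory serines of the pro-apoptotic protein BAD are replaced so that they cannot be phosphorylated. End-point ages were 24.0 ± 1.93 weeks in Bad_WT and 27.5 ± 2.85 weeks in Bad3SA (mean ± SD, n = 6 each), although the design text describes matching at end-point. The comparison of genotypes asks, for these genes, whether the transcripts of cell division differ in tumours in which BAD cannot be phosphorylated.

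Cells that commit to division pass from G1 into S phase when cyclin E and its kinase release the E2F transcription factors, which switch on the genes of replication. The MCM helicase is loaded at origins with CDC6 and CDT1, activated with CDC45 and the GINS complex, and followed by primase, polymerases, the sliding clamp PCNA and its loader RFC. Later, in G2, the MYBL2 and FOXM1 factors act with the MuvB complex on promoters that carry a cell cycle genes homology region (CHR), and cyclin B with CDK1 drives entry into mitosis. In tumours the RNA of both sets is widely read as a measure of how many cells are cycling. In RNA from whole tumours, a smaller share of cycling cells and less RNA per cycling cell cannot be told apart.

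The promoters of the sets carried sequence elements in different shares. The elements are shown as a description that the list of names did not use, and they do not divide the members cleanly. Windows from 250 bases before to 50 bases after the annotated start were present in the RefSeq promoter table (GRCm38.p6) for 49 of the 59 members, 25 of the mitosis set (27 windows) and 24 of the replication set (28 windows). Without an entry were Ccna2, Aurkb, Foxm1, Tpx2, Kif20a, Ccne2, Mcm4, Gins1, Gins2 and Pole. A CHR, searched as TTTGAA or TTCGAA on both strands, was present in 20 of 27 mitosis windows (74.1%), in 5 of 28 replication windows (17.9%) and in 19.2% of all 32851 windows. An E2F site, searched as TTTCCCGC, TTTGGCGC, TTTCGCGC or TTTGCCGC on both strands, was present in 1 mitosis window (3.70%), in 10 replication windows (35.7%) and in 2.26% of all windows. CCAAT, on either strand, was present in 21 of 27 mitosis windows (77.8%), in 14 of 28 replication windows and 37.4% of all windows. CHR and CCAAT stood together in 66.7% of mitosis windows, 14.3% of replication windows and 7.52% of all windows. Some members of both sets, such as Melk, Mybl2, Pcna and Tyms, had neither a CHR nor an E2F match. These are matches of letters and not measured binding.

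The 160 bases before the annotated start are given for 8 members, 5′ to 3′ on the gene's strand, with matches to any of these elements in capitals. Each of the 8 carries a CHR or an E2F match, and members without such a match are not shown. In the first 4, from the mitosis set, the capitals mark CHR and CCAAT on either strand, and in Cdk1 also an E2F match. In the last 4, from the replication set, they mark E2F and CCAAT matches. In Mcm5 and Mcm6, E2F matches on opposite strands overlap and appear as 1 run of capitals.
Cdk1 (chr10:69352913-69353072, minus strand): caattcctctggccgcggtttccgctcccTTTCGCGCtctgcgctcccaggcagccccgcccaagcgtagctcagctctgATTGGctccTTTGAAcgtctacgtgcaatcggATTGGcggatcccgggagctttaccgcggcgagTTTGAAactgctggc
Cdc20 (chr4:118437344-118437503, minus strand): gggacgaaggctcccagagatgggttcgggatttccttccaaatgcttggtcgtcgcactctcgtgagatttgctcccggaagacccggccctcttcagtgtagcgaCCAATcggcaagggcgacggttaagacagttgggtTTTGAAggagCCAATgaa
Ube2c (chr2:164769769-164769928, plus strand): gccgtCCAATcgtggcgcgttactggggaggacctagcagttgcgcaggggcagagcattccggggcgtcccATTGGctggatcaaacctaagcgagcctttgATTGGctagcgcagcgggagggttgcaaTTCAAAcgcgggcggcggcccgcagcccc
Kif11 (chr19:37376222-37376381, plus strand): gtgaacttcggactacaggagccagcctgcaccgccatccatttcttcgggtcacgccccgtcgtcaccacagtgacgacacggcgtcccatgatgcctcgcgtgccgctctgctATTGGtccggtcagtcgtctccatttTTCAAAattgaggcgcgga
Cdc6 (chr11:98907991-98908150, plus strand): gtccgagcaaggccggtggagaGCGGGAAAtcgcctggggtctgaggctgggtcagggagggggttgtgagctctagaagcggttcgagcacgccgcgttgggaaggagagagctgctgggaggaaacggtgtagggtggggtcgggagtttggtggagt
Mcm5 (chr8:75109349-75109508, plus strand): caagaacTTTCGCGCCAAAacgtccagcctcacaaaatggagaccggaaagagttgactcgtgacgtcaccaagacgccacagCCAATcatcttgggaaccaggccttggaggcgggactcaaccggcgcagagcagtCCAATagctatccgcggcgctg
Mcm6 (chr1:128359706-128359865, minus strand): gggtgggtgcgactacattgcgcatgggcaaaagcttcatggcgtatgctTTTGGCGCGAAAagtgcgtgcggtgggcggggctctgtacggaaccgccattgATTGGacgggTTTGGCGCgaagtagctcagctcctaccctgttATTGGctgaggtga
Pola1 (chrX:93632156-93632315, minus strand): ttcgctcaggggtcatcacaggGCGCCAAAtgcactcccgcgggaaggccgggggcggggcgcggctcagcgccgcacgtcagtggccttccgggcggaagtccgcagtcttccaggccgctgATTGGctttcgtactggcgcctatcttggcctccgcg

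Total counts ran from 58096172 to 83296370 per tumour, and 3 counts corresponded to at most 0.0544 CPM (counts scaled by library size and TMM factor). All 59 members passed the filter on low counts. Epithelial markers named the tissue as labelled, Krt8 standing at a mean of 1249 CPM (SD 170) in Bad_WT against 1346 CPM (SD 213) in Bad3SA. Where libraries are numbered, the number is the one in the sample title. Bad_WT 5 and 6 stood apart on heat shock genes, where the list mean was 8.59 and 8.57 log2 CPM, while the other 10 tumours ran from 6.90 to 7.45, and Bad_WT 6 was lowest of 12 on the fibroblast, macrophage and T cell lists.

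No member of either set passed the test between the genotypes. In edgeR, 0 of 30 mitosis genes and 0 of 29 replication genes passed an adjusted p of 0.05, against 1.38% of the 18019 genes tested (112 higher and 137 lower in Bad3SA). An unadjusted p under 0.05 was reached by 5 members, or 8.47% of them, against 16.2% of all genes. None of the 59 was called by DESeq2 or limma voom either. The values of the 6 Bad_WT and the 6 Bad3SA tumours overlapped for each of the 59 members, while they did not overlap for 2.23% of the genes tested. The mitosis set had 23 negative and 7 positive log2 fold changes with a median of -0.14, the replication set 19 negative and 10 positive with a median of -0.074, and over all genes the median was 0.0033. Without Bad_WT 6 the medians were 0.039 and 0.030. Without both Bad_WT 6 and Bad3SA 5, a pair chosen after seeing the data, they were -0.0082 and -0.064. The sign of the medians thus depended on which of these tumours were included. With end-point age in the model the medians were 0.0048 and -0.063. Age differed between the genotypes, so here and below age and genotype cannot be fully told apart in that model.

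The precision of the comparison limits what this absence of calls says. The 95% interval of the log2 fold change (edgeR estimate and standard error) had a median width of ±0.46 in the mitosis set and ±0.35 in the replication set. For 58 of the 59 genes it lay within -1 and 1, that is, within 2-fold in either direction, and the exception was Cenpe with a lower bound of -1.19. Differences inside these intervals remain possible with 6 tumours per genotype. The intervals are not adjusted for the number of genes tested, and they are not limits of detection. They spanned 0 for 54 of the 59 genes, and the other genes did not pass either. Pole2, with an interval from -0.70 to -0.087, was one of those.

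**Figure D1:**
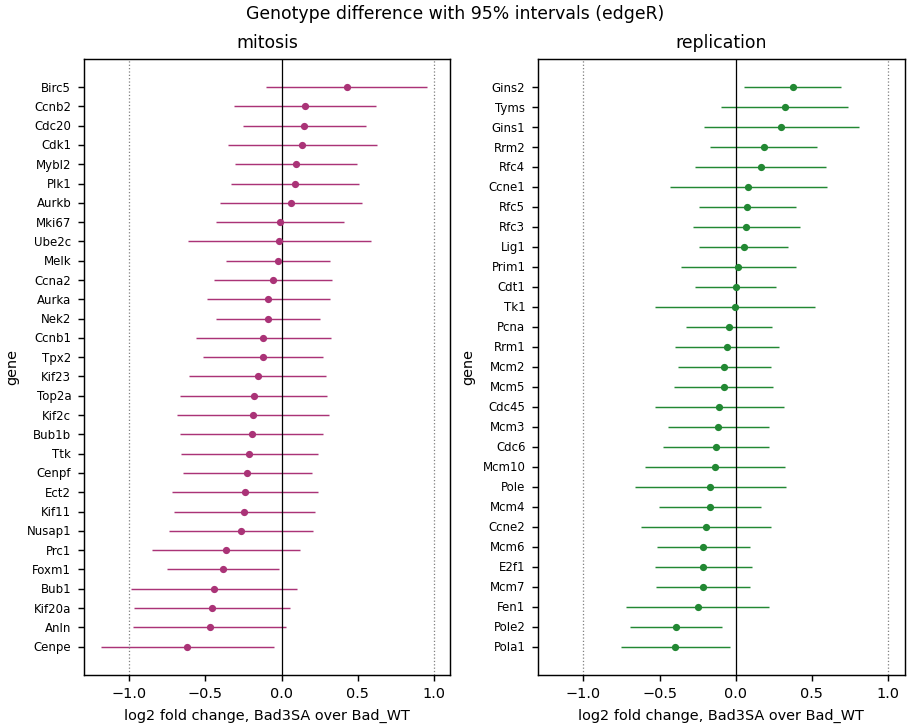
Log2 fold change of each member (x axis, Bad3SA over Bad_WT, positive is higher in Bad3SA) with its 95% interval from edgeR, ordered by value, for the mitosis set (left) and the replication set (right). The dotted lines mark -1 and 1, and Cenpe is the gene whose interval crosses one of them.

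Among the kinases and cyclins of mitotic entry, none passed the test. Cdk1, the mitotic kinase, ran from 40.8 CPM through a median of 56.7 to 100.4 CPM in Bad_WT, and from 52.4 through 61.0 to 109.9 CPM in Bad3SA. The highest tumour of each genotype, Bad_WT 6 and Bad3SA 5, stood well above the other 5. Its log2 fold change was 0.14 (SE 0.23, edgeR adjusted p = 0.780). Ccnb1, which encodes its partner cyclin B1, ran from 46.8 through 53.5 to 109.9 CPM in Bad_WT and from 45.2 through 60.9 to 70.6 CPM in Bad3SA. The Bad3SA median was the higher one and the Bad_WT mean the higher one, because Bad_WT 6 was so high (log2 fold change -0.12, SE 0.21, edgeR adjusted p = 0.790). The other 7 genes of this group, among them Ccna2, Ccnb2, the Polo kinase gene Plk1 and the Aurora kinase genes Aurka and Aurkb, lay between -0.089 and 0.16. All 9 had an adjusted p of at least 0.732.

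The proliferation marker Mki67, which encodes the chromosome-coating protein KI-67, had nearly equal means of 176 ± 45.5 CPM (Bad_WT) and 175 ± 39.7 CPM (Bad3SA). Its tumours ran from 105 through 184 to 223 CPM in Bad_WT and from 128 through 182 to 216 CPM in Bad3SA. The log2 fold change was -0.0095, with a 95% interval from -0.43 to 0.41 (edgeR adjusted p = 0.983). Bad3SA 1 and 2 and Bad_WT 3 and 4 were the 4 lowest tumours for Mki67, so low and high tumours occurred in both genotypes. Top2a, the topoisomerase that untangles sister chromatids, ran from 116 through 175 to 282 CPM in Bad_WT and from 110 through 160 to 236 CPM in Bad3SA (-0.18, SE 0.22, edgeR adjusted p = 0.694). The value was -0.031 without Bad_WT 6 and -0.31 without Bad3SA 6.

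Neither of the mitotic transcription factors passed the test. Foxm1 ran from 25.1 through 32.6 to 52.0 CPM in Bad_WT and from 23.3 through 26.6 to 29.5 CPM in Bad3SA. All 6 Bad3SA tumours lay below the Bad_WT median, and 2 Bad_WT tumours, 3 and 4, lay inside the Bad3SA range. Its log2 fold change of -0.38 (SE 0.17) had an unadjusted p of 0.0424 and an edgeR adjusted p of 0.292. The value was -0.23 without Bad_WT 6 and -0.18 once end-point age was modelled. Mybl2, which encodes B-MYB, stood at 0.096 (SE 0.19, edgeR adjusted p = 0.815). Foxm1 was 1 of 2 mitosis genes with an unadjusted p under 0.05.

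The other was Cenpe, the kinesin that moves chromosomes to the spindle equator. It had the lowest log2 fold change of all 59 members, -0.62 (SE 0.26, unadjusted p = 0.0349, edgeR adjusted p = 0.275). It ran from 23.4 through 31.8 to 66.0 CPM in Bad_WT and from 18.8 through 24.4 to 33.4 CPM in Bad3SA. Without Bad_WT 6 the value was -0.40, and without both Bad_WT 5 and 6 it was -0.13. The difference in means came with these tumours, at 55.6 and 66.0 CPM, while the other 4 Bad_WT tumours, at 23.4 to 34.3 CPM, lay within or just above the Bad3SA range. At the other end was Birc5, which encodes survivin of the chromosomal passenger complex, with the highest log2 fold change, 0.43 (SE 0.25, edgeR adjusted p = 0.396). It ran from 34.2 through 42.3 to 59.4 CPM in Bad_WT and from 35.3 through 47.7 to 106 CPM in Bad3SA. Bad3SA 5 and 6, at 106 and 76.0 CPM, carried it, and the other 4 Bad3SA tumours lay within the Bad_WT range. Without Bad3SA 5 the value was 0.17, and with age in the model 0.22. The other 5 spindle genes, Kif11, Kif2c, Cenpf, Nusap1 and Tpx2, lay between -0.27 and -0.12.

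All 5 genes of the central spindle and cytokinesis were negative, with a median of -0.37, and none passed. Anln, which encodes the actin-binding anillin of the cleavage furrow, ran from 32.2 through 44.1 to 83.5 CPM in Bad_WT and from 28.1 through 35.6 to 45.5 CPM in Bad3SA (-0.47, SE 0.23, edgeR adjusted p = 0.335). Kif20a, a kinesin of the central spindle, ran from 20.7 through 30.4 to 56.4 CPM in Bad_WT and from 17.6 through 24.9 to 30.7 CPM in Bad3SA (-0.46, SE 0.24, edgeR adjusted p = 0.361). Bad_WT 1, 5 and 6 lay above each Bad3SA tumour for both genes, and the other 3 Bad_WT tumours lay within the Bad3SA range. Without Bad_WT 6 the values fell in size to -0.28 for Anln and -0.25 for Kif20a. With end-point age in the model they were -0.17 and -0.028, and with limma voom -0.19 and -0.18. Prc1, Ect2 and Kif23 stood at -0.37, -0.24 and -0.16. Of the 5 genes of the spindle checkpoint and the anaphase-promoting complex, 4 were negative. Bub1, the checkpoint kinase gene, stood at -0.44 (SE 0.25, edgeR adjusted p = 0.398) and Cdc20, the activator of the anaphase-promoting complex, at 0.15 (SE 0.19, edgeR adjusted p = 0.699), with Bub1b, Ttk and Ube2c between.

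**Figure D2:**
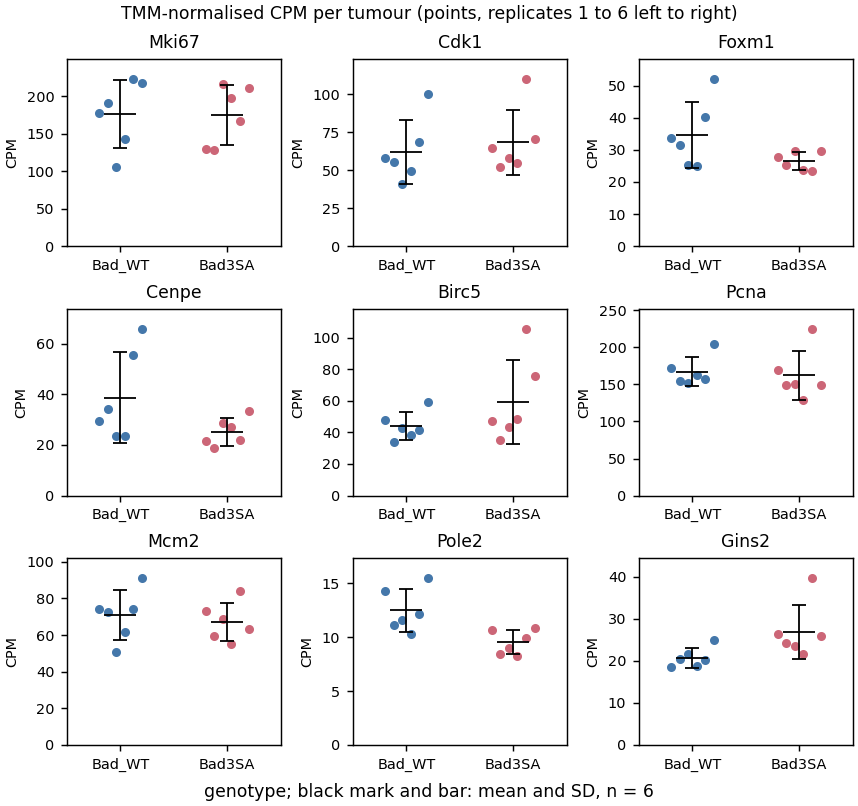
TMM-normalised CPM (y axis, linear from 0) of 9 members in each of the 12 tumours by genotype (x axis), with mean and SD over 6 tumours. The groups overlap for each gene. Bad_WT 6, the rightmost blue point, is highest in its group for Cdk1, Foxm1, Cenpe, Birc5, Pcna, Mcm2, Pole2 and Gins2.

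In the replication set, none of the 3 regulators of the G1 to S step passed the test. E2f1, the founding E2F factor, ran from 15.3 through 16.7 to 26.2 CPM in Bad_WT and from 13.1 through 16.1 to 17.8 CPM in Bad3SA (a log2 difference of -0.21, SE 0.15, edgeR adjusted p = 0.475). Without Bad_WT 6 it was -0.095. Ccne1, which encodes cyclin E1, ran from 10.6 to 26.2 CPM in Bad_WT and from 13.0 to 27.7 CPM in Bad3SA, with a median of 14.8 CPM in both (0.083, SE 0.24, edgeR adjusted p = 0.880). Its Bad3SA maximum was Bad3SA 5, and without that tumour the value was -0.12. Ccne2 stood at -0.19.

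All 8 genes of origin licensing were negative, between -0.22 and -0.00075, and none passed (smallest edgeR adjusted p = 0.458). Mcm2, a subunit of the MCM helicase, ran from 50.9 through 73.3 to 91.1 CPM in Bad_WT and from 55.0 through 65.9 to 83.9 CPM in Bad3SA (-0.074, SE 0.14, edgeR adjusted p = 0.809). The Bad3SA values lay entirely within the Bad_WT range. Mcm7, from the same hexamer, had the lowest value of the group (-0.22, SE 0.14, edgeR adjusted p = 0.458), running from 99.7 through 119 to 175 CPM in Bad_WT and from 92.5 through 109 to 125 CPM in Bad3SA. Without Bad_WT 6 it was -0.098. Mcm3, Mcm4, Mcm5 and Mcm6 lay between -0.21 and -0.080. Cdc6, a helicase loader, ran from 12.8 through 15.8 to 20.6 CPM in Bad_WT and from 11.2 through 13.8 to 19.0 CPM in Bad3SA (-0.13, SE 0.16, edgeR adjusted p = 0.701). Without Bad_WT 1, its highest tumour, it was -0.027. Cdt1, the other loader, averaged 30.6 ± 4.18 CPM (Bad_WT) and 30.6 ± 4.46 CPM (Bad3SA), with the narrowest interval of all members (±0.27).

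Helicase activation and DNA synthesis held the 3 replication genes with an unadjusted p under 0.05. Gins2, a subunit of the GINS complex, ran from 18.6 through 20.4 to 24.9 CPM in Bad_WT and from 21.7 through 25.1 to 39.7 CPM in Bad3SA. All 6 Bad3SA tumours lay above the Bad_WT median, and the groups overlapped between 21.7 and 24.9 CPM (log2 fold change 0.37, SE 0.15, unadjusted p = 0.0248, edgeR adjusted p = 0.245). Without Bad3SA 5 the value was 0.23. Pole2, the second subunit of polymerase epsilon, ran from 10.3 through 11.8 to 15.5 CPM in Bad_WT and from 8.25 through 9.46 to 10.8 CPM in Bad3SA. All 6 Bad3SA tumours lay below the Bad_WT median, and 1 Bad_WT tumour, Bad_WT 4, lay inside the Bad3SA range. Its value of -0.39 (SE 0.14) had the smallest p of all 59 members (unadjusted p = 0.0155, edgeR adjusted p = 0.206). The value ranged from -0.45 to -0.32 as single tumours were left out, and was -0.27 with end-point age in the model. Pola1, the catalytic subunit of polymerase alpha, ran from 21.2 through 28.1 to 42.7 CPM in Bad_WT and from 19.2 through 23.7 to 26.4 CPM in Bad3SA (-0.40, SE 0.17, unadjusted p = 0.0336, edgeR adjusted p = 0.271), and its value was -0.20 with age in the model. With end-point age in the model no member reached an unadjusted p of 0.05, against 7.78% of all genes in that model.

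The sliding clamp, its loader and the nucleotide enzymes mostly had values near 0. Pcna ran from 152 through 161 to 205 CPM in Bad_WT and from 129 through 150 to 226 CPM in Bad3SA (-0.045, SE 0.13, edgeR adjusted p = 0.880), the Bad3SA tumours spanning more than the Bad_WT range. Rfc3, Rfc4 and Rfc5, subunits of the clamp loader, stood at 0.070, 0.16 and 0.077, and the ligase gene Lig1 at 0.052. All 4 were negative without Bad3SA 5, at -0.087, -0.038, -0.016 and -0.044. Fen1, of the same group, stood at -0.25 with and without that tumour. Tyms, which encodes thymidylate synthase, ran from 33.2 through 40.6 to 60.6 CPM in Bad_WT and from 42.4 through 45.6 to 87.9 CPM in Bad3SA (0.32, SE 0.19, edgeR adjusted p = 0.420). Each Bad3SA tumour lay above the Bad_WT median, and without Bad3SA 5, the highest, the value was 0.12. Rrm1 and Rrm2, the subunits of ribonucleotide reductase, stood at -0.056 and 0.18, and the thymidine kinase gene Tk1 at -0.0031. Without Bad3SA 5, where it was at 118 CPM, Tk1 was at -0.27.

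Variation between tumours of one genotype was larger than the difference between genotypes. The mean of the mitosis set ran from 5.07 (Bad_WT 3) to 6.23 log2 CPM (Bad_WT 6) in Bad_WT, and from 5.16 (Bad3SA 4) to 5.63 log2 CPM (Bad3SA 5) in Bad3SA. These correspond to means of 5.51 ± 0.44 and 5.41 ± 0.20 (SD, n = 6 each). The Bad3SA tumours all lay inside the Bad_WT range. The replication set spanned 4.85 to 5.54 log2 CPM (Bad_WT) and 4.84 to 5.47 log2 CPM (Bad3SA), with means of 5.10 ± 0.25 and 5.05 ± 0.23. Within genotypes the median SD of a gene was 0.40 on the log2 scale in the mitosis set, 0.29 in the replication set and 0.37 over all genes tested.

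Each end of the order held tumours of both genotypes. Bad_WT 6 was the highest of the 12 tumours for 24 of 30 mitosis genes and 15 of 29 replication genes. Bad3SA 5 was the highest for 13 replication genes, among them Pcna, Tyms, Tk1, Rrm2, Gins1 and the RFC genes, and for 5 mitosis genes, Cdk1, Plk1, Aurkb, Cdc20 and Birc5. In the same tumour Foxm1 and Kif20a were at their lowest of 12, while the means of both sets were high. By end-point, Bad_WT 6 was the youngest mouse, at 21.3 weeks, and Bad3SA 5 the oldest, at 31.1 weeks. Mki67 peaked in Bad_WT 5 and Cdc6 in Bad_WT 1. Bad_WT 3 was the lowest tumour for 15 mitosis genes and 8 replication genes. Bad3SA 4 was the lowest for 7 mitosis and 8 replication genes, and Bad_WT 4 for 7 replication genes.

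**Figure D3:**
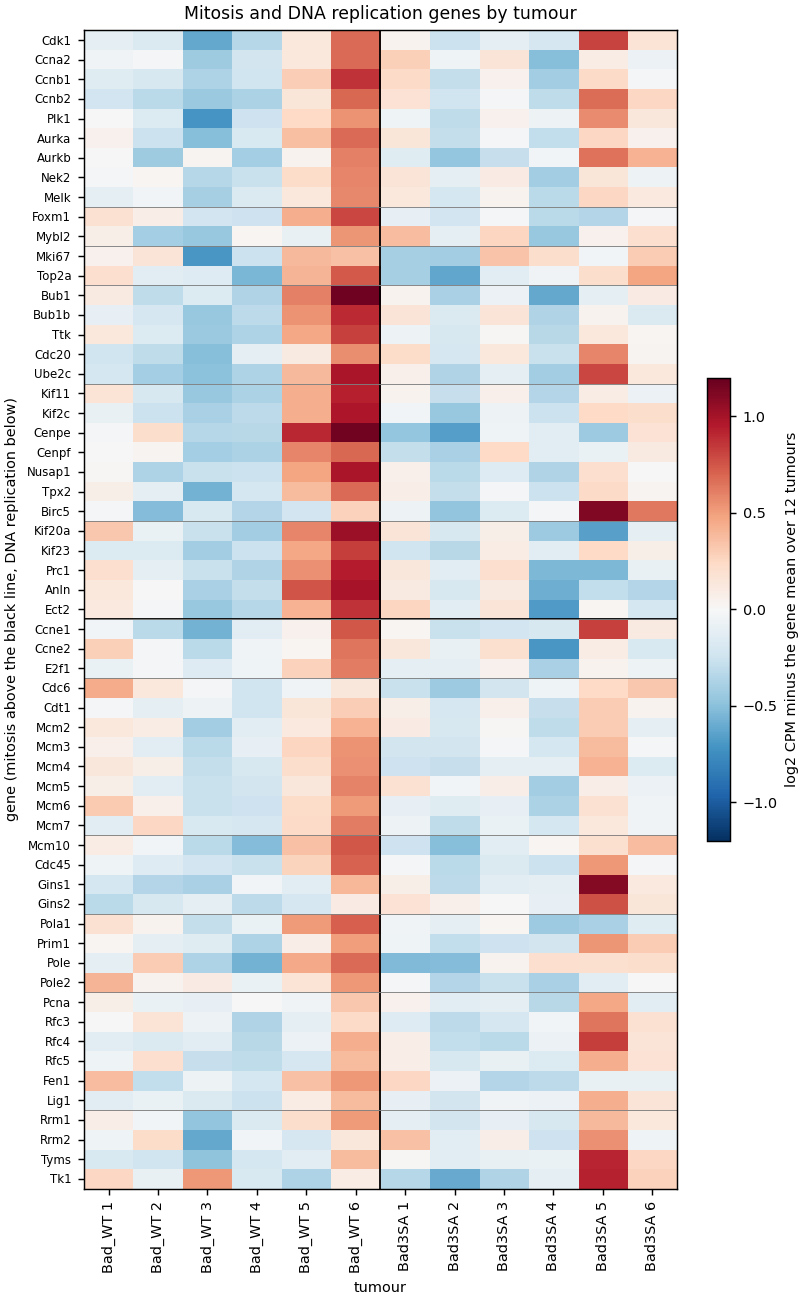
Colour gives the log2 CPM of each member (y axis, grouped by role) in each tumour (x axis) minus that gene's mean over the 12 tumours. Bad_WT 6 is red in nearly all genes, Bad_WT 5 mainly in the mitosis set, and Bad3SA 5 mainly in the replication set, with blue for Kif20a, Prc1, Cenpe, Pola1 and Foxm1.

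The distance between the sets differed from tumour to tumour. The mitosis mean exceeded the replication mean by 0.65 and 0.69 log2 units in Bad_WT 5 and 6, by 0.17 in Bad3SA 5, and by 0.22 to 0.51 in the other 9 tumours. Members followed each other across tumours. With each genotype's mean removed, the median correlation over the 12 tumours was 0.81 among the 435 pairs of mitosis genes, 0.68 among the 406 pairs of replication genes and 0.69 among the 870 pairs between the sets. Without Bad_WT 6 and Bad3SA 5 these medians were 0.77, 0.46 and 0.57, and all pairs share the same libraries. Ccnb1 and Tpx2 were the mitosis genes closest to the rest of their set (median r of 0.92 and 0.90), and Birc5 and Mki67 the farthest (0.48 and 0.50). Tk1 followed neither set closely, with a median r of 0.042 to the mitosis genes and 0.37 to the replication genes. It was at 89.0 CPM in Bad_WT 3, where 23 other members were at their lowest, and at 48.0 CPM in Bad_WT 5.

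Markers of other cells ran opposite to these levels in some tumours and not in others. The fibroblast list (8 genes) had its lowest mean in Bad_WT 6, at 3.94 log2 CPM, and its highest in Bad3SA 2 and Bad_WT 4, at 6.85 and 6.67, which were among the low tumours for both sets. The macrophage list (8 genes) was again lowest in Bad_WT 6, at 4.51, and highest in Bad3SA 2 and Bad_WT 4, at 6.34 and 6.31. Over all tumours the fibroblast means ran from 3.94 to 6.67 in Bad_WT and from 4.10 to 6.85 in Bad3SA, and the macrophage means from 4.51 to 6.31 and from 5.00 to 6.34. The T cell list (8 genes) stood at -1.40 log2 CPM in Bad_WT 6 and between 0.13 and 1.46 in the other 11 tumours. The skeletal muscle list (5 genes tested) was also highest in Bad_WT 4 and Bad3SA 2, at 7.46 and 4.44 log2 CPM, and ran from -2.50 to 3.21 elsewhere. Epithelial means stayed between 8.61 and 9.17 log2 CPM. Bad3SA 1 had a fibroblast mean of 4.10, close to that of Bad_WT 6, with a mitosis mean of 5.48 that lay in the middle of the order. Bad3SA 5, high for the mitosis and replication sets at 5.63 and 5.47, had fibroblast and macrophage means of 6.02 and 5.79. Its T cell mean of 1.46 was the highest of the 12 tumours. Bad_WT 3, lowest for the mitosis set at 5.07, had fibroblast and macrophage means of 5.72 and 5.24. None of the 8 fibroblast or 8 macrophage genes had an adjusted or unadjusted p under 0.05 between the genotypes in edgeR. All 8 T cell genes were positive with a median of 0.61, 2 of them, Cd3d and Cd4, with an unadjusted p under 0.05, and none passed (smallest edgeR adjusted p = 0.236). All 6 fat cell genes were positive with a median of 1.80 and none passed (smallest edgeR adjusted p = 0.313). The 5 skeletal muscle genes tested were all negative with a median of -2.34, and none passed (smallest edgeR adjusted p = 0.492). All 5 red cell genes were positive with an unadjusted p under 0.05 and none passed (smallest edgeR adjusted p = 0.172). The heat shock list had 7 of 8 genes negative and none passed in edgeR (smallest adjusted p = 0.148). Hspa1a and Hspa1b had an unadjusted p under 0.05, and Hspa1a passed in the authors' deposited table (adjusted p = 0.0132). The part of these cells, and of the heat shock genes, in the levels of the members was not tested. With both Bad_WT 5 and 6 left out, a choice made after seeing the data, 25 of 30 mitosis genes were positive with a median of 0.17, 19 of 29 replication genes with a median of 0.11, and again none passed.

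**Figure D4:**
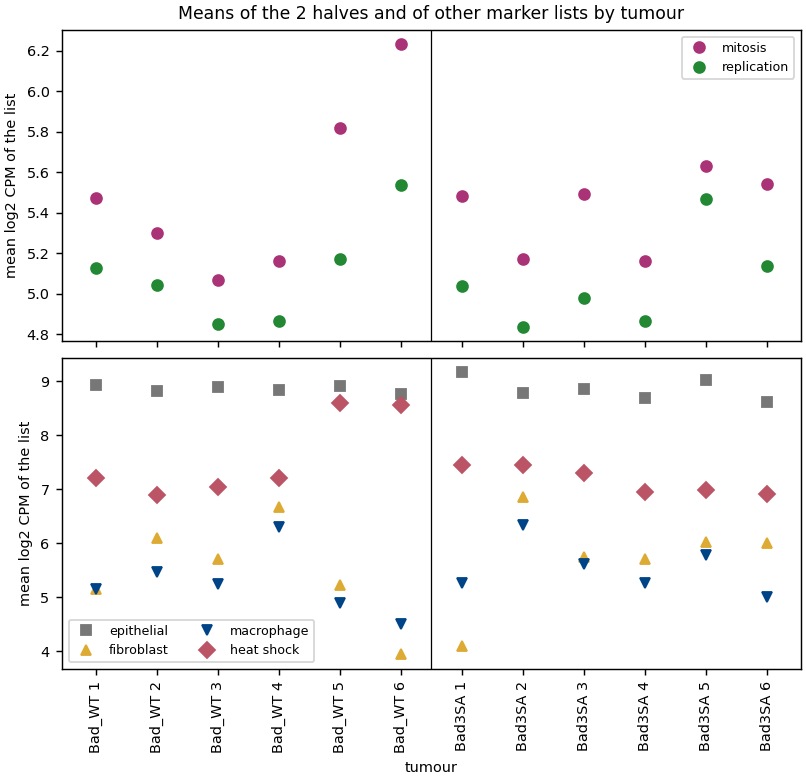
Mean log2 CPM (y axis) of the mitosis and replication sets (upper panel) and of epithelial, fibroblast, macrophage and heat shock marker lists (lower panel) in each tumour (x axis), Bad_WT left of the line. Bad_WT 6 combines the highest mitosis mean, 6.23, with the lowest fibroblast mean, 3.94.

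Gene length moved with part of the pattern. Exonic lengths of the members, the union of annotated exons in GENCODE release M21, ran from 1.52 to 15.4 kb. The union takes in the exons of every annotated transcript and can exceed the length of any single one. Lengths of the transcripts present in the tumours were not measured. Members were placed in a short (up to 3.59 kb), a middle and a long class (4.92 kb and over). In Bad3SA 5 the mitosis genes stood at a median of 0.62 log2 units above their mean over the 12 tumours in the short class (8 genes), at 0.12 in the middle class (10 genes) and at -0.0041 in the long class (12 genes). The replication genes stood at 0.44, 0.43 and 0.27 (12, 9 and 8 genes), a smaller contrast by length than in the mitosis set. Their long class held Tyms (6.09 kb) and Tk1 (5.20 kb), at 0.92 and 0.93. Over all genes tested the classes stood at 0.30, -0.022 and -0.25 in that tumour, so the contrast was not limited to the members. In Bad_WT 5 and 6 the order over all genes was the reverse, at -0.089, 0.020 and 0.12, and at -0.088, 0.046 and 0.12. The mitosis classes stood at 0.14, 0.41 and 0.45 in Bad_WT 5, and at 0.59, 0.88 and 0.83 in Bad_WT 6. The replication classes stood at 0.095, 0.092 and 0.16, and at 0.52, 0.50 and 0.46. For the genotype difference, the mitosis medians were 0.075, -0.16 and -0.23 from short to long. The replication medians were -0.076, 0.015 and -0.10, in no order of length. Over all genes they were 0.13, -0.020 and -0.11. Without Bad3SA 5 the mitosis medians were -0.055, -0.20 and -0.25, and the replication medians -0.19, -0.099 and -0.19. Over all genes they were then 0.058, -0.032 and -0.079. Whether length took part in the members' values was not tested.

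**Figure D5:**
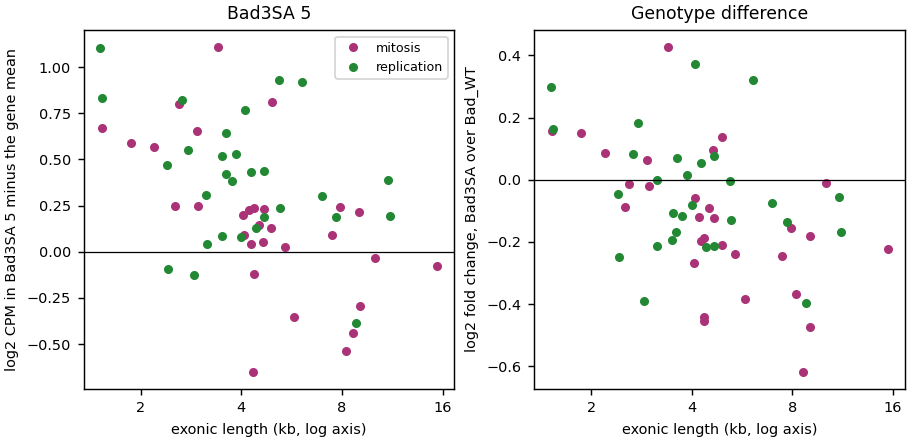
Exonic length of each member (x axis, log scale, kb) against its deviation in Bad3SA 5 from its mean over the 12 tumours (left) and against its log2 fold change between genotypes (right). Points above 0.75 at left include Gins1, Birc5, Tk1, Tyms and Cdk1, and Cenpe is the lowest point at right.

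Levels between genes were compared per kilobase of the same exon union, with the same limit, as CPM per kb averaged over the 12 tumours. Pcna was highest at 68.7, followed by Cdc20 at 49.95, Ccnb2 at 35.7 and Rrm2 at 29.9, and the MCM genes Mcm5, Mcm6 and Mcm7 lay between 26.3 and 29.3. The median was 11.1 in the mitosis set and 9.75 in the replication set. Fen1, the flap endonuclease gene, was lowest at 0.735. Of the 2422 exonic bases of Fen1, 1909 (78.8%) are shared in the annotation with the antisense gene Gm10143, and Fen1 had 1536 counts over all 12 tumours and Gm10143 189. Whether strand was used in counting is not stated in the labels, and reads of such partners could not be told apart. For Gins2, 67.3% of exonic bases are shared with Gse1, for Kif20a 29.3% with Cdc23 and for Ube2c 22.8% with Tnnc2, all on the other strand, and the counts of these 4 genes are uncertain to that extent. In all, 18 members share exonic bases with a gene on the other strand. Near copies named as pseudogenes of Ccnb1, Ccnb2, Pcna and Tyms had few counts, at most 1219 for Pcna-ps2 beside 140885 for Pcna.

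Other genes of the cell cycle were read from lists that hold no member. Of 47 further mitosis genes none passed, with 33 negative and 14 positive and a median of -0.093. Pttg1, which encodes securin, had the highest value (0.50, SE 0.23, edgeR adjusted p = 0.309) and Cdc25b, a phosphatase that activates CDK1, the lowest (-0.44, SE 0.26, edgeR adjusted p = 0.411). Of 42 further replication genes none passed, with 24 negative and a median of -0.037. An unadjusted p under 0.05 was reached by 7 of the 42, against 16.2% of all genes tested. Of these 7, Chaf1a, Rfc1, Ticrr, Chek1, E2f2 and Exo1 were negative and Rnaseh2a positive. The smallest p there was that of Chaf1a, a subunit of the chromatin assembly factor (-0.49, SE 0.16, edgeR adjusted p = 0.174). Of 13 cyclins, kinases and drivers of G1 none passed. Ccnd1, which encodes cyclin D1, ran from 185 through 309 to 384 CPM in Bad_WT and from 165 through 187 to 217 CPM in Bad3SA, the Bad3SA tumours lying low with some overlap. Its log2 fold change was -0.67 (SE 0.17, edgeR adjusted p = 0.0714), and it passed in the authors' deposited table (DESeq2 adjusted p = 0.0125). Of 21 cell cycle inhibitors and repressors 1 passed, against 1.38% of all genes tested. This was Btg1, an antiproliferative gene, which was at 403 ± 50.3 CPM in Bad_WT and lower, at 283 ± 21.9 CPM, in Bad3SA without overlap between the groups (-0.51, SE 0.10, edgeR adjusted p = 0.0222). In that list of 21 genes, 14 were negative and 7 positive, with a median of -0.090. The CDK inhibitor genes Cdkn1a and Cdkn2d, among its positive genes, stood at 0.23 and 0.26 and did not pass.

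In the authors' deposited table, which holds a DESeq2 comparison, none of the 59 members had an adjusted p under 0.05, against 4.02% of the genes with an adjusted p there. The smallest was that of Pole2 (adjusted p = 0.0711 in the authors' deposited table), followed by Gins2 at 0.194 and Cenpe at 0.216. With the sign turned so that positive is higher in Bad3SA, the authors' deposited table gives -0.39 for Pole2, 0.35 for Gins2 and -0.56 for Cenpe.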

How the data were processed

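Polyadenylated RNA of 12 tumours was sequenced as 100 bp read pairs, per the labels. The authors deposited raw counts per Ensembl gene. Per the submitters' processing notes the build was GRCm38 and the tools included STAR 2.7.9a, fastp 0.23.1 and DESeq2. The counting tool, its annotation and its use of strand: not given in the sources used here. The authors' deposited comparison holds, per the file headers, a mean signal of normalised counts, a log2 fold change and its standard error, a Wald score, and p-values before and after adjustment. Its log2 values have the sign of Bad_WT over Bad3SA, since they correlate at a Spearman rho of -0.997 with those fitted here across genes.

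Counts were filtered with filterByExpr of edgeR 4.0.16 (18019 of 55487 genes left), TMM-normalised and fitted by quasi-likelihood, with Benjamini-Hochberg adjustment of the F test over all genes, at a threshold of 0.05, in R 4.3.3. Standard errors were obtained by dividing each absolute log2 fold change by the root of its F. Log2 CPM values used a prior count of 2. Lengths and overlaps come from GENCODE release M21. Alternatives used DESeq2 1.42.0, limma 3.58.1, other filters, end-point age, the title number and fewer tumours. Each library is a separate mouse. The CPM of 3 counts covers counting error only.

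The members, gene lists and motifs were chosen with earlier results of these data known. Members named with full values are those that pass, the 5 smallest p and the highest and lowest fold change in each set, and Mki67, Top2a, Ccnb1, Cdk1, Foxm1, Mcm2, Pcna, Cdc6, Ccne1 and E2f1. Cdt1, Tk1, Fen1, Bub1, Mybl2 and Cdc20 were added after their values were seen. Marker lists for endothelial, B and fat cells, skeletal muscle and red cells had no gene that passed.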

Additional observations from a re-analysis of the deposited data

Results flagged for a closer look

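In 8 of 122 sets of 6 tumours (59 members and the means of both sets, in each genotype), the highest tumour stood far from the other 5 by Dixon's test at its 95% critical value. Chance alone flags about 1 in 20. In 7 of these the tumour was Bad3SA 5. There Mcm4 was at 75.3 CPM against 46.5 to 52.2 CPM in the other 5 Bad3SA tumours, Mcm3 at 87.6 CPM, Cdc45 at 22.8 CPM, Gins1 at 32.4 CPM, Gins2 at 39.7 CPM, Ccne1 at 27.7 CPM and Tyms at 87.9 CPM. The remaining one was Rfc4 in Bad_WT 6, at 32.4 CPM against 19.1 to 22.9 CPM. These genes share 2 libraries and are not independent of each other.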

How the results depend on the processing

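The number of members called was 0 of 30 and 0 of 29 in the main model and in each of 22 other settings, 2 of which (leaving out Bad_WT 6 with Bad3SA 5, and Bad_WT 5 with Bad_WT 6) were chosen after seeing the data. The smallest adjusted p of a member was 0.0571, for Pole2 with DESeq2. The number of all genes called moved from 249 to 863 with DESeq2 (same filter), 573 with limma voom, 163 with a filter of 1 CPM in 6 tumours, 73 with end-point age and 105 with the replicate block, and ran from 147 (without Bad_WT 5) to 315 (without Bad_WT 4) as single tumours were left out. The medians of the sets ran from -0.25 to 0.039 (mitosis) and from -0.17 to 0.030 (replication) in those fits. Of 418 values of the 19 named members, 394 kept their sign and none passed. Mki67 was 0.074 with limma voom, 0.020 with the 1 CPM filter, 0.073 without both Bad_WT 6 and Bad3SA 5 and 0.19 without both Bad_WT 5 and 6. Ccnb1 was 0.034 with limma voom, 0.098 with end-point age, 0.042 without the first pair of tumours and 0.22 without the second, and Top2a, Mcm2 and Pcna were 0.097, 0.049 and 0.012 without the second. With single tumours left out, Mki67 ran from -0.14 to 0.068, Ccnb1 from -0.21 to 0.096, Cdk1 from -0.053 to 0.33, Ccne1 from -0.12 to 0.28, Mcm2 from -0.17 to 0.0093 and Pcna from -0.17 to 0.028. The cause of these moves was not tested. No pairing of the mice by title number was visible in the expression values, although such values cannot exclude one. Deviations of tumours with the same number correlated across genes between -0.27 and 0.28. Of 6 numbers, 1 was its own best match in both directions. With the replicate block the medians were -0.087 and -0.066. Depth, at 1.36 CPM or more in every tumour for each member, was far above the 3-count level.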
